A study of Mus musculus with 10 samples.

Results

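Binding of RelA was compared between 2 ways of timing dexamethasone (Dex), a synthetic glucocorticoid, in macrophages that had been exposed to lipopolysaccharide (LPS) for 8 h. In one library Dex was given 3 h before LPS (early Dex), and in the other it was given late, at an hour the labels do not state (late Dex). Regions enriched in chromatin immunoprecipitation followed by sequencing (ChIP-seq) were taken as the authors called them, and those that shared at least 1 bp with an enriched region of input DNA were left out. This gave 240 regions, 15 with early Dex and 225 with late Dex, out of 115077 regions in the 10 lists of the series. All cells were primary bone marrow derived macrophages of C57BL/6J mice. The other libraries used here were RelA after 0, 3 and 8 h of LPS without Dex, RelA after Dex pretreatment and 0 or 3 h of LPS, the glucocorticoid receptor (GR) with Dex and with LPS and Dex, and input DNA of untreated cells. The GR libraries carry no times in their labels. Each condition had 1 library, so no spread between replicates is known, no p-value was computed, and intervals on shares are Wilson 95% intervals that cover counting error only.

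RelA is a transactivating subunit of the transcription factor NF-κB. In resting macrophages it is held mostly in the cytoplasm by inhibitor proteins. LPS, a component of the bacterial outer membrane, acts through Toll-like receptor 4 to degrade those inhibitors, and RelA then enters the nucleus and binds enhancers and promoters of inflammatory genes. Glucocorticoids act through GR, a nuclear receptor that binds its own DNA elements and can also sit at sites held by other factors. It induces inhibitors of NF-κB signalling, and the timing of the drug relative to the inflammatory stimulus is the subject named in the title of the series.

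Late Dex left RelA called at many more places than early Dex, and few regions were in both lists. Of the 225 late regions, 2 were also called with early Dex, 0.889% (0.244 to 3.18), and 223 were not. Of the 15 early regions, 2 were called with late Dex, 13.3% (3.74 to 37.9), and 13 were not. The late list was 15 times as long as the early one. With regions that met input kept, it held 250 regions against 78, which is 3.21 times as many. Then 20 late regions, 8.0% (5.24 to 12.0), were met by the early list, and 21 early regions, 26.9% (18.3 to 37.7), by the late list. The size of the gap thus changed with the input regions, which made up 63 of the 78 early regions, 80.8% (70.7 to 88.0), and 25 of the 250 late ones, 10.0% (6.87 to 14.3). With most early regions at places enriched in input and 1 library per condition, a poor early precipitation and a loss of RelA binding cannot be told apart, and this holds for every count of early regions given here.

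The regions of the late list were taller and wider than those of the early list. The files give each region its highest tag density (a signal of reads piled up, on a scale the sources used here do not explain) and a z-score from the authors' caller, the score below. Among the 223 regions called with late Dex but not with early Dex, called late-alone here, the highest tag density ran from 4.04 to 74.4 with a median of 23.3 and quartiles of 19.1 and 28.9. Their scores ran from 9.85 to 43.1 with a median of 12.9, and their median width was 468 bp. The 15 early regions had a median width of 253 bp, and 7 of them had the narrowest width, 251 bp. A tag density of 10 or more was found at 217 of the 223, whereas 2 of the 15 early regions reached it. The highest density of an early region was 20.1, and 155 late-alone regions lay above it. The lowest score was 9.18 in the early list and 9.85 in the late list. Whether scores or tag densities compare between libraries is not known.

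Both Dex lists were next read against the regions of LPS without Dex, an order of strength that neither Dex library had set. The 10 highest-scoring RelA regions at 8 h without Dex were all called with late Dex, and 1 of them with early Dex. Late Dex held 46 of the highest 50, 75 of the highest 100, 118 of the highest 200 and 169 of the highest 500. Early Dex held 1, 1, 1 and 2 of the same sets. Over all 1878 regions of that list the shares were 10.8% with late Dex and 0.160% with early Dex, 202 regions against 3. Against the 3 h list without Dex the picture was alike, with all of the highest 20 called with late Dex and 1 of them with early Dex. The gap between the shares called was thus wider among the strongest sites of LPS alone than over the whole lists. The early list held only 15 regions, so this gap follows the share called with late Dex. No density is given where a region was not called, so a difference in binding by site strength was not measured.

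**Figure D1:**
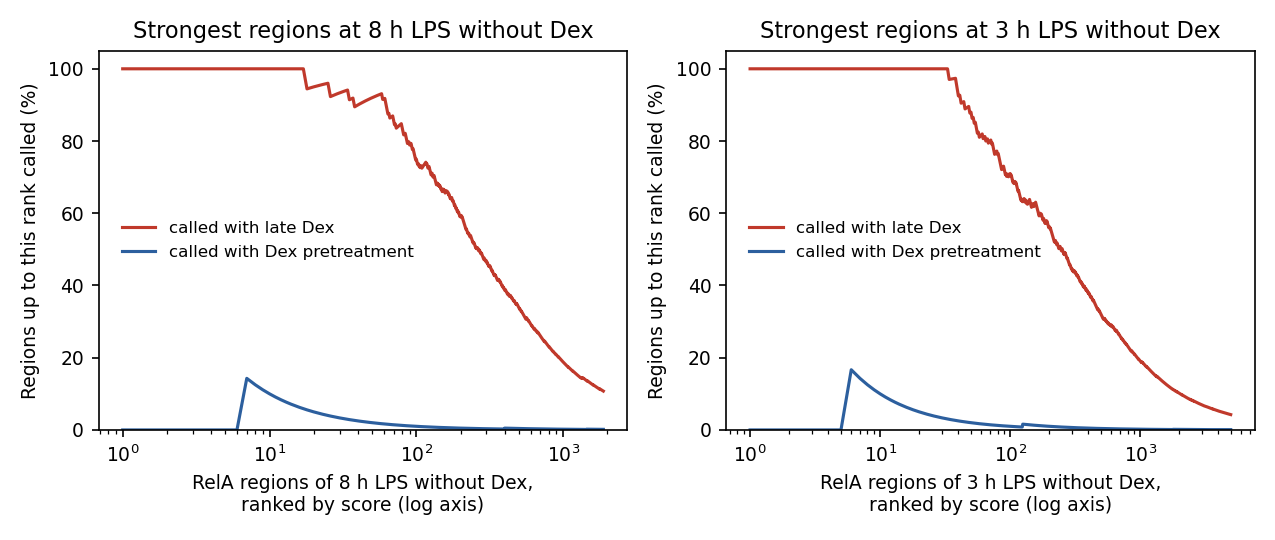
Share of RelA regions called with late Dex (red) and with Dex pretreatment (blue) among the strongest regions of the 8 h (left) and 3 h (right) lists without Dex, outside input; x axis, number of regions taken in order of score, on a log axis; y axis, percent called. The red line starts at 100% and ends at 10.8% on the left and 4.24% on the right, and the blue line rests on 1 region up to rank 200 at 8 h and ends at 0.160% and 0.0805%.

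Of the 50 strongest regions at 8 h without Dex, 4 were in neither Dex list. They lay at chr11:64468352-64469331 (rank 18, tag density 89.2 at 8 h), chr2:136762371-136763206 (rank 26, 99.0), chr11:43198425-43199378 (rank 35, 62.6) and chr15:67612236-67613083 (rank 38, 85.2). Each met a GR region of LPS and Dex, with GR tag densities of 50.1, 169, 28.2 and 88.5. Among the 100 strongest regions, GR of LPS and Dex was called at 74 of the 75 regions with late Dex and at all 25 without it. The median GR tag density was 70.2 (quartiles 44.0 and 100.2) at the first and 50.1 (33.7 and 83.7) at the second, so the ranges overlapped widely. All positions are those of the mouse genome build mm9, as deposited. No annotation of that build was at hand, so regions are named by position and not by gene.

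The 15 late-alone regions with the highest late score were all called at 3 h and at 8 h of LPS without Dex, and all met GR of LPS and Dex. Before LPS, 5 of them were called without Dex and 7 with Dex pretreatment. The first, chr17:13202759-13203480, had the highest late score in the list outside input. Without Dex its tag density was 37.6, 164 and 132 after 0, 3 and 8 h of LPS. Pretreatment without LPS gave 27.6, late Dex 74.4, and GR had 100.3 there with LPS and Dex. No call was made there once LPS had followed pretreatment, so late Dex was the only RelA library with Dex and LPS that listed it.

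Another pair of neighbours lay on chromosome 17, at chr17:18037519-18038278 and chr17:18021551-18022218. Both had a higher score at 8 h than at 3 h without Dex, 94.5 against 76.9 and 71.9 against 53.4, and the same was true of chr15:6518932-6519697, with 108 against 79.4. The late tag densities of these regions were 61.1, 49.6 and 42.6, against 160.4, 112 and 148 at 8 h without Dex. In the other 12 of the 15 the 3 h score was the higher one.

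A further pair lay on chromosome 2, at chr2:167579278-167579968 and chr2:167602776-167603394. Without Dex, their tag densities were 137 and 162 after 3 h of LPS and 84.5 and 90.7 after 8 h. With late Dex they were 51.6 and 43.3 with late Dex. Pretreatment without LPS gave 30.6 and 19.9. After pretreatment and 3 h of LPS the first was not called and the second had 17.9. Neither was called after pretreatment and 8 h of LPS.

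The region chr10:18734944-18735628 was called in every RelA library but the early one at 8 h. Its tag density was 31.9, 171 and 142 after 0, 3 and 8 h of LPS without Dex. Pretreatment gave 23.7 before LPS and 25.7 after 3 h of it. Late Dex gave 55.5. Another late-alone region lay beside it, and the pair spanned 6484 bp from position 18729144.

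The region chr19:22022272-22022969 stood apart by its time course. Its tag density was 133 after 3 h and 24.1 after 8 h of LPS without Dex, and late Dex gave 45.7. The GR tag density there was 385 with LPS and Dex, the highest of these 15 regions, against 15.4 with Dex. The other named regions were chr11:117807643-117808271, chr6:66798839-66799433, chr10:74792715-74793417, chr7:53974856-53975515, chr16:96119420-96119994, chr8:93605734-93606300 and chr1:84296191-84296846. Their late tag densities lay between 35.5 and 43.2. Those of chromosomes 8 and 1 were also called in a pretreated library, the first at 3 h of LPS and the second at 0 h.

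**Figure D2:**
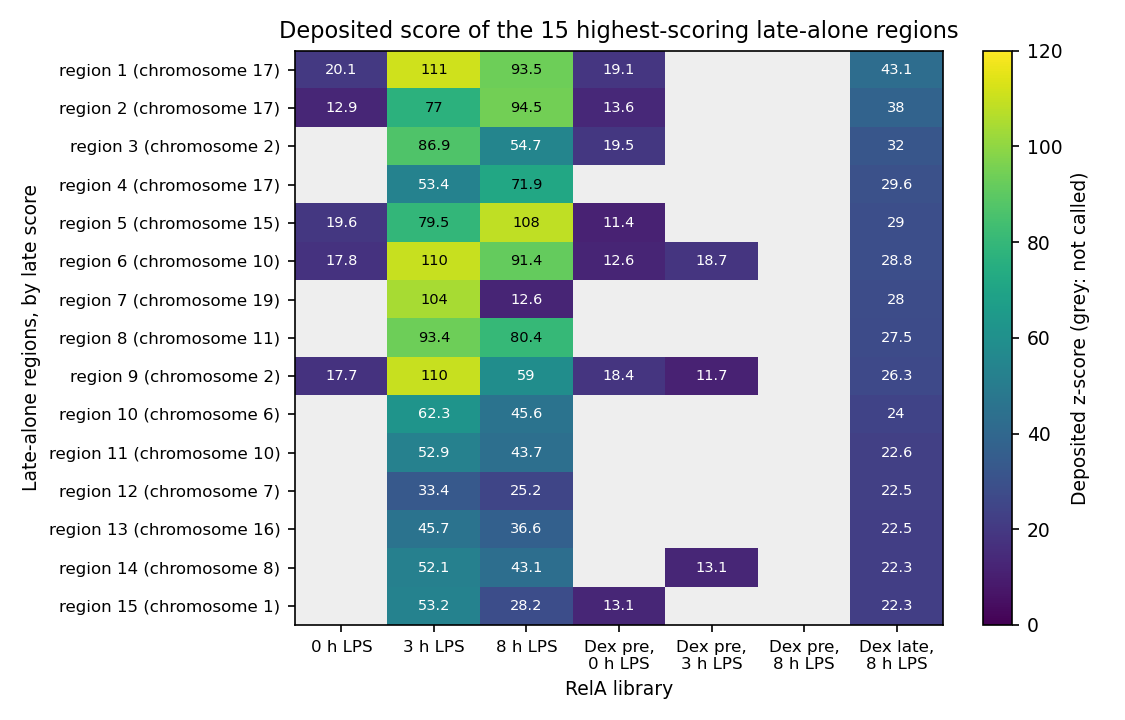
Deposited score of the 15 late-alone regions with the highest late score (rows, in order of late score and named by chromosome) in the 7 RelA libraries (columns); grey cells were not called. The column of pretreatment and 8 h of LPS is empty by definition, and that of late Dex runs from 22.3 to 43.1. Those of 3 h and 8 h without Dex run from 33.4 to 111 and from 12.6 to 108. Whether scores compare between libraries is not known.

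Nearly all late-alone regions were sites of LPS alone. At 3 h without Dex 210 of the 223 were called, 94.2% (90.3 to 96.6), against 83.9% of all regions of the 8 h list. At 8 h without Dex 200 were called, 89.7% (85.0 to 93.0), against 31.3% of all regions of the 3 h list. The 3 h list held 4972 regions outside input and the 8 h list 1878. The share of 31.3% was thus capped by list length, and the contrast with it is not a trait of late-alone regions. At least 1 of these lists held 213 of the 223, 95.5% (91.9 to 97.5). All regions of either list meet this by definition, so no share stands beside it. Since strong regions are called again more often, the regions of an LPS list are a yardstick and not a matched set.

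A minority had been occupied before LPS. The list of 0 h without Dex met 24 late-alone regions, 10.8% (7.34 to 15.5), where all regions of the 8 h list gave 1.92%. The list of pretreatment without LPS also met 24, where the 8 h list gave 1.60%, and that of pretreatment and 3 h of LPS met 10, 4.48% (2.45 to 8.06), where it gave 0.639%. Either of these pretreated lists held 27 of the 223, 12.1% (8.46 to 17.0), a share not computed for the 8 h list. These regions had thus been called under pretreatment at an earlier time. That none was called after pretreatment and 8 h of LPS follows from the definition of late-alone. The lists of 0 h without Dex and of pretreatment at 0 and 3 h of LPS held 83, 75 and 84 regions. Lists so short cap the shares over the 1878 regions of the 8 h list at low values. Strong regions are also called again more often, so the sets compared are not matched.

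Sorted by the lists without Dex, the late-alone regions fell into 5 classes. The largest, 173 regions or 77.6% (71.7 to 82.6), was called at 3 h and 8 h but not at 0 h. Its late tag density had a median of 24.4, and its median width was 473 bp. The 24 resting regions came next, and all were called at 3 h and 8 h too. Called at 3 h alone were 13 regions, at 8 h alone 3, and in none of the lists without Dex 10. The classes were not counted over the 8 h list without Dex. Of its regions 83.9% met the 3 h list and 1.92% the 0 h list. Being called at 3 h and 8 h but not at 0 h is thus not particular to late-alone regions.

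The 24 resting regions were the strongest class with late Dex. Before LPS their median tag density was 22.7 (14.2 to 38.8). It was 90.0 (42.8 to 171) after 3 h and 82.4 (33.5 to 160.4) after 8 h of LPS without Dex. Late Dex gave 29.4 (16.6 to 74.4). Late Dex was above 0 h at 22 of the 24, with a median log2 ratio of 0.30 on the deposited scale, and its median lay nearer to that of 0 h than to that of 8 h without Dex. Of these 24, 15 were called with pretreatment and no LPS, at a median of 21.9.

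The 13 regions shared with 3 h but not with 0 h or 8 h had a late median tag density of 19.6 and met GR of LPS and Dex in 12 cases, with a median GR tag density of 140.4. The same median was 65.5 over the 169 of the largest class that met GR. The highest late score of the 13 was 20.1, at chr13:42469443-42470078, with a late tag density of 28.2 and GR densities of 245 with LPS and Dex and 29.3 with Dex. At chr1:80599687-80600187 these densities were 24.5, 326 and 65.7, and at chr3:146320337-146320609 they were 19.1, 345 and 106. These are places where RelA was called at 3 h, was not called at 8 h without Dex, and was called with late Dex. The 8 h list without Dex begins at a score of 10.9, above the 9.85 of the late list, so a region missing from it need not have lost RelA.

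The 3 regions shared with 8 h alone were weak, with late tag densities of 17.3 to 21.6. The 10 with no counterpart in the lists without Dex were low and narrow, with medians of 7.51 in tag density and 263 bp in width. GR of LPS and Dex met 4 of them. The highest density among them was 22.7, at chr6:116092279-116092606, where GR had 159.9 with LPS and Dex and 32.1 with Dex. The highest score was 13.8, at chr9:55619556-55619938.

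**Figure D3:**
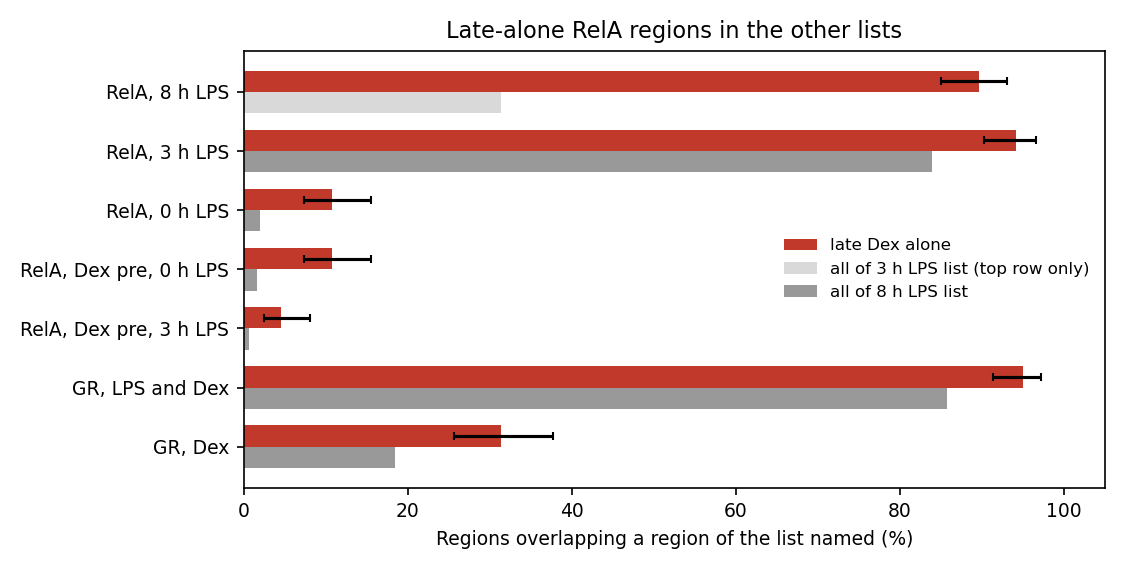
Percent of the 223 late-alone regions (red bars, with Wilson 95% intervals) that overlapped a region of each other list, beside the same share over all regions of the 8 h list without Dex (dark grey) or, for the 8 h list itself, over all regions of the 3 h list (light grey). The red bars run from 4.48% with pretreatment and 3 h of LPS to 95.1% with GR of LPS and Dex. Grey shares are capped where the list named is shorter than the list read against it.

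GR lay at almost all late-alone regions when LPS and Dex were both present. The GR list of LPS and Dex met 212 of the 223, 95.1% (91.4 to 97.2), where all regions of the 8 h list gave 85.8%. Among the 100 strongest regions of the 8 h list it met 74 of the 75 called with late Dex and all 25 not called. A high share was thus not particular to regions called with late Dex. The GR list of Dex met 70, 31.4% (25.7 to 37.8), where the 8 h list gave 18.4%. The GR tag density with LPS and Dex was at least 10 at 210 of them, and over the 212 it ran from 7.11 to 746 with a median of 65.5. No late-alone region met GR of Dex without also meeting GR of LPS and Dex, and 11 met neither list. Neither these counts nor the count at 10 or more were made over the 8 h list. The treatment labels of the GR libraries name an added protein cross-linker and no hours of treatment. Those of the RelA libraries name no fixation. These shares may thus set lists of differently handled cells side by side.

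Late Dex left most regions lower than LPS alone, on the deposited scale whose normalization between libraries is not known. At the 197 late-alone regions called at both 3 h and 8 h without Dex, median tag densities were 55.8 and 54.2 after 3 and 8 h without Dex. With late Dex the median was 24.5. The late value was below that of 8 h at 183 of the 197, with a median log2 ratio of -1.21 (quartiles -1.57 and -0.71). It was below that of 3 h at 192, with a median of -1.20. A region had to be strong enough for the late list to enter this set, so sites with a larger difference can be missing from it. The late regions were also narrower, with a median width of 478 bp against 752 bp for their 8 h counterparts. Of the 200 overlapping pairs, the late region was the narrower in 190 and lay wholly inside the other in 181. The median distance between centres was 29.5 bp.

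The difference was uneven among strong sites. At chr10:37057963-37058475, which had rank 2 by score at 8 h without Dex, 3 and 8 h of LPS without Dex gave tag densities of 107 and 140.5. Late Dex gave 21.3, a log2 ratio to 8 h of -2.72, the lowest of the 197. In the same order, chr2:57149921-57150451 had 82.6, 140.5 and 30.6, and chr17:29532216-29532781 had 111, 95.2 and 21.6. By contrast, chr17:13202759-13203480 had 132 at 8 h and 74.4 with late Dex.

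At 14 of the 197 regions the late tag density was above that at 8 h without Dex. The largest difference was at chr19:22022272-22022969, with a log2 ratio of 0.92. By score this region had rank 5 in the 3 h list, rank 1460 in the 8 h list without Dex and rank 8 in the late list. At chr17:26672078-26672639 the corresponding tag densities were 108, 21.2 and 28.2. Its ranks were 16, 1363 and 33, and its GR tag density of 746 with LPS and Dex was the highest at any late-alone region. At chr11:109271667-109272266 the tag densities were 68.6, 19.5 and 27.0, and GR had 225. The 14 regions had a median GR tag density of 129 (82.7 and 222), and the 183 others one of 63.8 (37.1 and 93.1) over the 179 that met GR. Without Dex, 12 of the 14 were lower at 8 h than at 3 h, against 83 of the 183. The 8 h value enters both comparisons, so part of that last contrast is built in. The GR values come from another library, but the 14 regions were picked by their late and 8 h values. How far that choice sets the GR contrast was not tested.

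**Figure D4:**
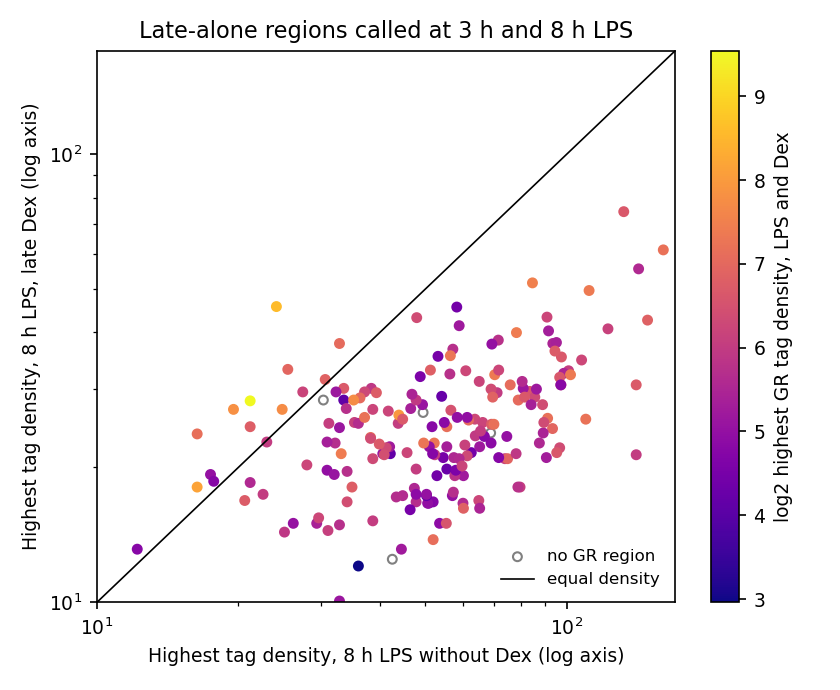
Highest tag density with late Dex (y, log axis) against 8 h of LPS without Dex (x, log axis) at the 197 late-alone regions called at 3 h and 8 h without Dex, coloured by the log2 of the highest GR tag density with LPS and Dex; open circles met no GR region and the line marks equal density. Points above the line number 14 and those below it 183, and the points of highest GR density include several above the line.

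Across these regions the late tag density followed that of 3 h and of 8 h without Dex loosely, with Spearman's rho of 0.45 and 0.40 over 197 regions, while the values at 3 h and 8 h had a rho of 0.65. With the GR density of LPS and Dex, over the 193 regions that met it, rho was 0.31 for late Dex, 0.26 for 3 h and 0.055 for 8 h without Dex. These are descriptions over regions, which share their libraries and are not replicates.

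Late-alone regions were spread over the genome, with 24 on chromosome 2, 17 on chromosome 4, 15 on chromosome 11 and 2 on chromosome X. Within 10000 bp of another late-alone region lay 25 of them, in 12 groups of 2 or 3. Taken over gaps of up to 50000 bp, 4 regions lay together on chromosome 7 over 33362 bp from position 53970877, with late tag densities of 30.0 to 40.3. A group of 4 weaker regions, from 14.4 to 21.6, lay on chromosome 2 over 16803 bp from position 30768666. Of the 1878 regions of the 8 h list without Dex, 48 lay on chromosome X. Groups and other chromosomes were not counted over that list, so neither pattern can be called particular to late-alone regions.

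The 2 regions called with both timings differed in kind. At chr19:6945151-6945821 tag densities of 117 and 132 after 3 and 8 h without Dex stood beside 46.2 with late Dex and 20.1 with early Dex. It was also called after pretreatment and 3 h of LPS, at 16.6, but not without LPS, and GR had 64.6 with LPS and Dex. The early value here was the highest of the early list outside input, on a region of 337 bp against 670 bp with late Dex. At chr12:5623192-5623469 the tag density was low throughout, with 7.23, 6.42 and 6.24 after 0, 3 and 8 h of LPS without Dex, 6.34 with late Dex and 8.56 with early Dex. GR had 12.4 there with LPS and Dex and 13.5 with Dex, and the RelA values lay between 6.24 and 8.56.

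The 13 regions of the early list alone were weak. Their tag density ran from 2.11 to 12.1 with a median of 6.34, and 7 of them were 251 bp wide, the narrowest width in the list. Of the 13, 9 met no region of any of the 7 other ChIP lists. The remaining 4 met both GR lists, and 2 of these also met RelA of LPS without Dex. One was chr10:5744619-5744882, with a tag density of 8.83 and scores of 46.3 at 3 h and 24.9 at 8 h without Dex. The other was chrX:93016170-93016423, called at 3 h with a score of 9.95. Its tag density at 3 h was 0.815, the lowest value in the 3 h list outside input. The highest score was 15.8, at chr12:23466285-23466536, where the tag density was 3.17. The highest tag density was at chr8:71997964-71998329, with GR of 13.4 with LPS and Dex.

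Early Dex at 8 h also fell short of the short lists taken before it. Of the 43 regions of pretreatment without LPS outside input, none was called in the early 8 h list, and a count of 0 allows a share of up to 6.98%, taken as 3 counts of the total, or 8.20% by the Wilson interval. Late Dex held 24 of the 43, 55.8% (41.1 to 69.6). Of the 33 regions of pretreatment and 3 h of LPS, 1 was called at 8 h with early Dex and 11 with late Dex. Of the 47 resting regions without Dex, early Dex held 1, 2.13% (0.377 to 11.1). With input regions kept the contrasts were smaller. Early Dex then held 14 and late Dex 36 of the 75 regions of pretreatment without LPS. Of the 84 regions of pretreatment and 3 h of LPS they held 27 and 29, and of the 83 resting regions 25 and 43.

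The regions that met input lie where DNA was enriched without an antibody to RelA. Late and early Dex both called 18 late regions of this kind. There the median tag density was 27.8 with early Dex and 22.3 with late Dex. The log2 ratio of early to late had a median of 0.06 (quartiles -0.33 and 0.52, range -0.51 to 1.06), with early higher at 10 and late at 8. At chr11:108872805-108873585, for instance, late Dex had 84.2, early Dex 65.9 and input 45.2. Outside input, the corresponding log2 ratios were -1.20 at chr19:6945151-6945821 and 0.43 at chr12:5623192-5623469. A further 44 regions that met input were called with early Dex alone, and 7 with late Dex alone. A ratio exists only where both lists called a region, so its median is partly set by that choice. These values do not show whether the libraries compare.

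**Figure D5:**
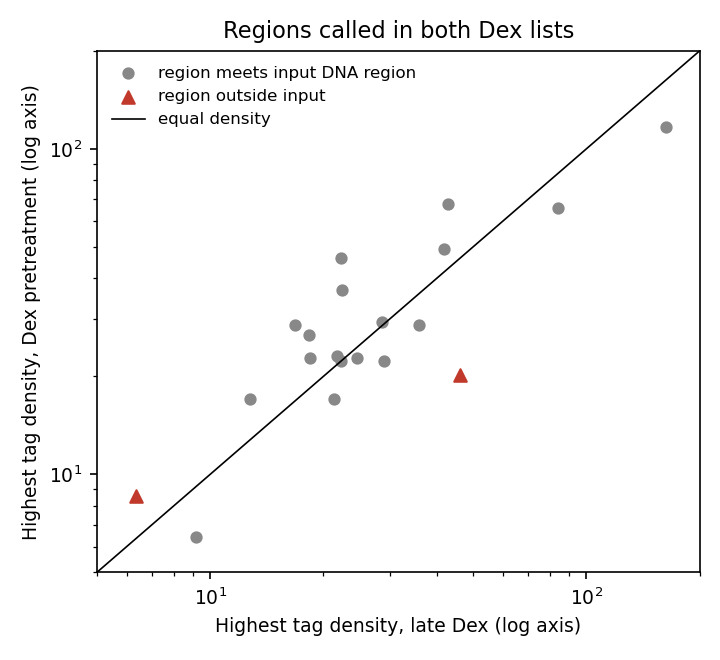
Highest tag density with Dex pretreatment (y, log axis) against late Dex (x, log axis), both at 8 h of LPS, for the regions called in both lists; grey points met an input region, red triangles did not, and the line marks equal density. The 18 grey points lie on both sides of the line, 10 above and 8 below, and the triangle at 46.2 with late Dex lies below it at 20.1.

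The sources used here state no read depth, and the values themselves bear on it only in part. In the early list outside input, 9 of the 14 tag densities below 20 were 2, 3 or 6 times 1.057, among them 4 of 3.17 and 4 of 6.34. In the late list 15 of 69 such values were whole multiples of 1.206. Most late values lie on no such step, so the relative depth of these libraries was not taken from it. The part of depth in the short early list was not tested.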

How the data were processed

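RelA and GR binding was measured by ChIP-seq, with 1 library per condition. Per the submitters' processing notes, the tool was CASAVA and the genome build mm9. The region caller and its threshold are not given in the sources used here. Per the file headers, each deposited list gives a highest and a mean tag density per region (a signal whose scaling is not stated), a z-score (the score used here) and a p-value. The deposited p-value was not used. All 10 lists were read.

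Regions sharing at least 1 bp were counted as overlapping, with code checked on simulated intervals and against bedtools 2.31.1 (Python 3.11.15, pandas 2.3.3, scipy 1.17.1). Regions of the other lists that met input were kept when late-alone regions were set against them. Where several regions overlapped one, the highest value was taken. Tag density steps were searched between 0.7 and 1.4 among values below 20, within 0.0003. The regions named are the 15 late-alone regions of highest late score, every shared region, and others singled out after their values were seen. Members and rules were chosen with earlier results of these data known. Gene tables and sequences at hand were on another build, so no gene name, motif or sequence was used. Alternatives covered overlap, input, score, merging, chromosome X and list length.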

Additional observations from a re-analysis of the deposited data

How the results depend on the processing

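No paired analysis was possible because each condition had 1 library. In every alternative tried, the late list, unless cut to the length of the early one, was the longer. With input-overlapping regions kept, the early list held 78 regions, 57 of them not called late, 8.0% of late regions were called early, and 0.582% of the 8 h regions without Dex were called early. With the higher-scoring 50% of each list, 113 late and 8 early regions remained and none was shared (113 and 8 alone, shares of 0% in both directions), and 0% of the 8 h regions were called early. Where only regions scoring 11 or more were used, 5 early regions remained, all 5 alone, with shares of 0% both ways, and the 8 h list was called at 8.59% late and 0.054% early. Requiring 50% of both regions to be shared gave 8.09% late and 0.0532% early. With the late list cut to 15 regions, 14 were not called early and 6.67% were. A tag density of at least 10, an alternative chosen after seeing the data, left 2 early regions, 1 of them alone (50% called late), and 0.0537% of the 8 h regions called early. Centres within 200 bp, gaps of up to 500 bp, 50% input coverage, merging and leaving out chromosome X moved none of these values beyond its interval or by more than 1.5 times. The shares of late-alone regions meeting other lists moved more. With 50% of both regions shared they were 58.7% for 3 h, 67.3% for 8 h, 61.4% for GR of LPS and Dex and 24.7% for GR of Dex. With centres within 200 bp they were 88.3% for 3 h and 87.9% for GR of LPS and Dex, and with the higher-scoring 50% of each list 98.2% for 3 h and 23.9% for GR of Dex. The cause was not tested. In the early list 1 or 2 regions decide each share, and read depth, not stated in the sources used here, sets no limit that could be computed.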
